A study of Mus musculus with 6 samples.

Results

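Selenoproteins are the small set of proteins that carry selenocysteine, the selenium analogue of cysteine, usually at their active site. The 10 genes described here encode members of that set named as targets of mercury: the glutathione peroxidases Gpx1 and Gpx4, the thioredoxin reductases Txnrd1 and Txnrd2, the selenium carrier Selenop, and Selenow, Selenom, Selenok, Selenot and Selenof. They were chosen by gene name, with earlier results of these data known, and each name matched 1 row of a table of 56748 genes. RNA was sequenced from the whole cerebellum of 6 C57BL/6J mice aged 90 to 120 days. In the MeHg group, 3 mice were born to dams that drank water with 0.2 ppm methylmercury (MeHg), an organic mercury compound toxic to neurons, from the start of pregnancy to birth. In the Control group, 3 mice were born to dams whose water held 0 ppm. Dosing ended at birth, so the offspring were adults long after exposure. No label gives the dam or litter of a mouse, and a p-value here reflects only how these 6 animals vary.

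Methylmercury binds strongly to selenols, the reactive group of selenocysteine, and thioredoxin reductases and glutathione peroxidases lose activity when it is bound. Selenocysteine is encoded by UGA, normally a stop codon, which is read through with the help of a hairpin in the 3′ end of the mRNA and a dedicated set of proteins. When selenium is short, the mRNAs of some selenoproteins are degraded at this codon while others are spared. The comparison of the 2 groups asked whether the RNA of these genes differed in the adult offspring. Protein amounts and enzyme activities are not part of the values used here.

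The selenocysteine codon is the feature that the 10 genes share, and it encodes the residue whose selenol methylmercury can bind. The coding sequence around this codon is shown for 7 of the genes. The sequences come from the canonical GENCODE transcripts (GRCm39, the build of the deposited tables), 5 codons on either side of the selenocysteine codon and ending at the stop codon where that comes sooner. Capitals mark the TGA that is read as selenocysteine, whose position stands beside each name.
Gpx1 (chr9:108216650-108216652, + strand): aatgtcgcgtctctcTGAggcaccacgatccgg
Gpx4 (chr10:79890571-79890573, + strand): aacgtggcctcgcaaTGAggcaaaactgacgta
Selenow (chr7:15654389-15654391, - strand): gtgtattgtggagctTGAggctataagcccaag
Selenom (chr11:3466273-3466275, + strand): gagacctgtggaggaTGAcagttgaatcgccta
Selenot (chr3:58492659-58492661, + strand): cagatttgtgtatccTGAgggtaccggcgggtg
Txnrd1 (chr10:82731871-82731873, + strand): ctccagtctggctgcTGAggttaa
Txnrd2 (chr16:18296522-18296524, + strand): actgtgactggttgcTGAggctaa

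In 9 of the 10 genes the coding sequence holds 1 such codon, and in Selenop it holds 10, of which 9 lie in the last exon. Selenow, Selenom and Selenot have a cysteine codon (TGT or TGC) 3 codons before the TGA, the spacing of the redox motif of thioredoxin-like proteins, and Selenof has one 2 codons before it. In Txnrd1 and Txnrd2 the cysteine codon comes directly before the TGA, which is the next to last codon: codon 498 of 499 in Txnrd1 and codon 526 of 527 in Txnrd2. The TGA of Selenok is also near the end, at codon 92 of 94, whereas those of Gpx1 (codon 47 of 201), Gpx4 (73 of 197) and Selenow (13 of 88) lie further inside the protein.

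The total count per library ran from 14116088 to 20303833. Granule cell markers, which define the cerebellum, summed to 4474 to 5224 CPM in MeHg and 6214 to 6756 CPM in Control, and 0 of the 10 were at 0. CPM is the count relative to the library size after scaling by TMM, a normalisation that assumes most genes do not differ. The labels put 2 females and 1 male in each group, but the library labelled Control replicate 2, female, had Xist at 0.249 CPM and the Y-linked Ddx3y at 87.2 CPM, the pattern of a male. By expression MeHg thus held 1 male and 2 females, and Control 2 males and 1 female. MeHg replicate 2 stood apart in brainstem markers, which summed to 195 CPM there and to 10.4 to 16.6 CPM in the other 5 libraries.

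The estimated log2 fold changes of the 10 selenoproteins, MeHg over Control, ran from -0.04 to 0.28. With edgeR's quasi-likelihood test, 0 of the 10 passed an adjusted p of 0.05, the threshold for a call, while 2.36% of the 16859 genes tested passed it (0.575% higher and 1.79% lower in MeHg). Those calls were 97 higher and 301 lower, a split that moved to 78 and 119 with upper-quartile scaling, 1200 and 1178 without a filter on low counts and 902 and 850 with sex by expression in the model. With only 2.36% of all tested genes called, 0 calls would be usual for any 10 genes and do not show that these were unchanged. At an unadjusted p under 0.05 there was 1 of the 10 selenoproteins, Gpx4, or 1 in 10 against 24.5% of all tested genes. DESeq2 called 1 of the 10, again Gpx4 (8.97% of genes called), and limma-voom called 0 (2.12% of genes called). Limma on FPKM also called 0 of the 10, but it called 0 of all tested genes. The fold change was above 0 for 9 of the 10 genes, against 51.1% of all tested genes, with a median log2 fold change of 0.11 against 0.01 for all. In CPM, all 3 MeHg libraries lay above all 3 Control libraries for 2 genes, Gpx4 and Txnrd1, where 13.9% of all tested genes did so. No gene of the 10 had all MeHg libraries below Control, as 15.5% of all tested genes did. Markers of several cell types also differed between these libraries. Microglial markers summed to 138 to 170 CPM in MeHg against 119 to 131 CPM in Control, and endothelial markers to 192 to 276 CPM in MeHg against 167 to 190 CPM in Control, with 1 gene called. Oligodendrocyte markers overlapped, at 5894 to 8052 CPM in MeHg and 5228 to 5969 CPM in Control. Purkinje cell markers summed to 6092 to 7833 CPM in MeHg against 7913 to 8717 CPM in Control, with 1 gene called. Astrocyte and Bergmann glia markers summed to 3342 to 3440 CPM in MeHg against 3556 to 3718 CPM in Control, with 0 called. Of these 9 glial genes, 2 were above and 2 below every control in all MeHg libraries. Of the 10 granule cell markers, 9 were below every control in all MeHg libraries and 4 were called. The part of these cell types in the levels of the 10 genes was not tested. In bulk tissue, fewer cells of a type and less RNA per cell cannot be told apart.

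**Figure D1:**
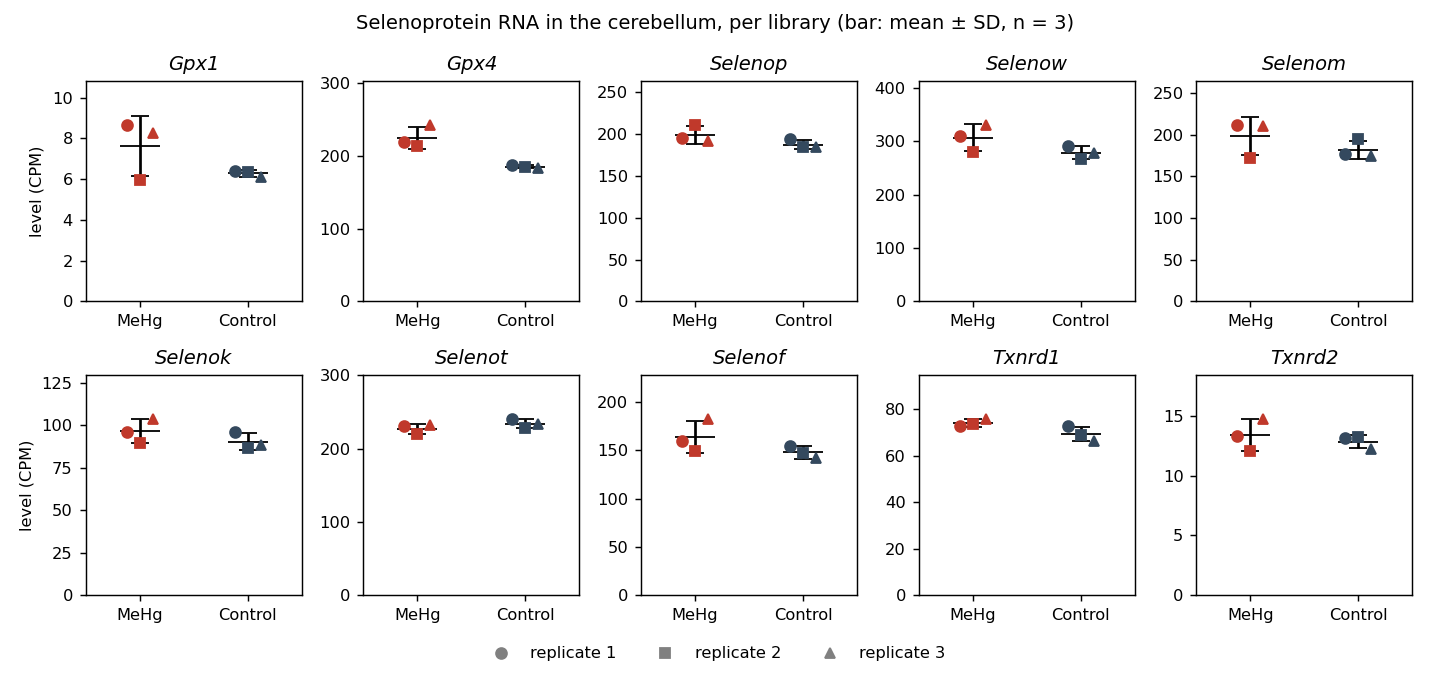
Level of each selenoprotein RNA in CPM (vertical axes from 0) in the 3 MeHg (left) and 3 Control (right) libraries, with marker shapes for replicates and bars for mean ± SD. In CPM the groups are apart for Gpx4 and, narrowly, for Txnrd1, and overlap for the other 8 genes.

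Among the peroxidases, Gpx4, which reduces lipid hydroperoxides in membranes and so protects cells from ferroptosis, had the smallest p. It stood at 219, 213 and 242 CPM in MeHg replicates 1 to 3 and at 187, 184 and 184 CPM in Control replicates 1 to 3. The lowest MeHg library was thus above every control, and the controls differed from each other by little. This is a log2 fold change of 0.28 ± 0.06 (SE, n = 3 each), about 21.5% higher in MeHg, with a 95% interval of 0.14 to 0.43, an unadjusted p of 0.00178 and an adjusted p of 0.0545 (edgeR). The gene therefore just missed the threshold. A fold change at least as high was seen in 18.9% of all tested genes.

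Gpx4 was called under 5 of 20 other settings, which gave adjusted p values of 0.00912 to 0.258 and log2 fold changes of 0.13 to 0.33. It passed with DESeq2 (adjusted p = 0.00912), without a filter on low counts (0.0113), without MeHg replicate 2 (0.0219), without both libraries numbered 2 (0.0224) and with sex by expression in the model (0.0392). Of all genes tested in the last 4 of these settings, 7.38%, 6.33%, 10.3% and 10.4% were called, in that order. By the sex seen in expression, the Gpx4 difference in mean log2 CPM was 0.30 between 2 MeHg and 1 Control female libraries. It was 0.21 between 1 MeHg and 2 Control male libraries, too few for a test. The same split gave opposite signs for Gpx1 (0.40 in females, -0.06 in males), Selenom (0.25, -0.10), Txnrd2 (0.10, -0.07) and Selenop (-0.01, 0.20). The other members kept their sign in both sexes. With offsets for gene length the log2 fold change of Gpx4 was 0.21 (edgeR adjusted p = 0.0939), and with offsets for length and GC content it was 0.13 (0.258).

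Reads of Gpx4 can be shared with Gpx4-ps2, by its name a pseudogene of Gpx4, so the value of Gpx4 is uncertain to that extent. Gpx4-ps2 had 13.6 to 15.7% of the counts of the pair in MeHg libraries and 14.3 to 16.0% in Control libraries. Its own log2 fold change was 0.19 ± 0.10 (SE, adjusted p = 0.280, edgeR). The 3 tested genes whose centred log2 CPM over the 6 libraries lay nearest to that of Gpx4 were Ndufb7, Ndufb10 and Rps9. Their root mean square differences from it were 0.0129, 0.0157 and 0.0202, and their log2 fold changes 0.29, 0.27 and 0.29. The first 2 encode subunits of respiratory complex I and the last a ribosomal protein.

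Gpx1, the cytosolic peroxidase that removes hydrogen peroxide, was among the least abundant of the 10 and had the widest relative spread in MeHg (a CV of 19.2%). It stood at 8.66, 5.95 and 8.29 CPM in MeHg replicates 1 to 3 and at 6.39, 6.34 and 6.11 CPM in Control. MeHg replicate 2 lay below every control and the other 2 MeHg libraries above. Its log2 fold change equalled that of Gpx4 to 2 decimals, at 0.28, but with an SE of 0.18, an interval of -0.12 to 0.69 and an adjusted p of 0.368 (edgeR). Its counts were 91 to 140 in MeHg and 85 to 127 in Control, against 2556 or more for Gpx4. Without MeHg replicate 2 the log2 fold change was 0.44 and still not called (adjusted p = 0.121), and without MeHg replicate 1 it was 0.18 (adjusted p = 0.638).

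The reductases, which return thioredoxin to its active reduced form and are the classic selenoenzyme targets of mercury, showed small differences. Txnrd1, the cytosolic enzyme, had 72.8, 73.4 and 75.8 CPM in MeHg against 72.6, 69.0 and 66.2 CPM in Control. The groups did not overlap in CPM, though MeHg replicate 1 and Control replicate 1 were nearly level. On the authors' FPKM scale they overlapped, with MeHg replicates 1 and 2 at 9.612 and 9.591 FPKM and Control replicate 1 at 9.645 FPKM. The difference was 0.09 ± 0.06 on the log2 scale (SE, adjusted p = 0.400, edgeR), with an interval of -0.05 to 0.24. Txnrd2, the mitochondrial enzyme, had 13.4, 12.1 and 14.8 CPM in MeHg against 13.1, 13.2 and 12.2 CPM in Control. The groups overlapped fully, with a log2 fold change of 0.06 ± 0.12 (adjusted p = 0.808) and an interval of -0.22 to 0.33.

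Selenop, the secreted protein that carries selenium between cells and enters neurons through the receptor Lrp8, had 195, 211 and 191 CPM in MeHg against 194, 184 and 184 CPM in Control. MeHg replicate 2 was the highest library, while MeHg replicate 3 lay within the controls and MeHg replicate 1 was level with the highest of them. Its log2 fold change was 0.09 ± 0.06 (SE, adjusted p = 0.418, edgeR), with an interval of -0.05 to 0.23. The data thus place the level in MeHg between 0.965 and 1.17 times that in Control. Lrp8 itself had a log2 fold change of -0.01 ± 0.07 (adjusted p = 0.943).

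Selenow, a small thioredoxin-like protein of brain and muscle and the most abundant of the 10, had 309, 280 and 331 CPM in MeHg against 291, 267 and 279 CPM in Control. MeHg replicate 2 lay within the control range. On the log2 scale MeHg was higher by 0.14 ± 0.08 (SE, adjusted p = 0.298, edgeR), with an interval of -0.03 to 0.31. Of the proteins of the endoplasmic reticulum, Selenom, a thioredoxin-like protein that is abundant in brain, had 211, 172 and 211 CPM in MeHg against 177, 194 and 174 CPM in Control. MeHg replicate 2 was the lowest of all 6 libraries and Control replicate 2 the highest control. The log2 fold change was 0.12 ± 0.09 (adjusted p = 0.430), and it was 0.27 and called without both libraries numbered 2 (adjusted p = 0.0228, in a range of 0.0228 to 0.983 over 20 other settings). 

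Selenof, which binds the glycoprotein folding sensor Uggt1, had 159, 150 and 183 CPM in MeHg against 155, 147 and 142 CPM in Control. MeHg replicate 3 was the highest library, and MeHg replicate 2 lay within the controls. Its log2 fold change was 0.15 ± 0.08 (SE, adjusted p = 0.283, edgeR). Selenok, a membrane protein that takes part in removing misfolded proteins from the reticulum, had 96.0, 89.7 and 104 CPM in MeHg against 96.0, 86.9 and 88.3 CPM in Control. Here too MeHg replicate 3 was highest and the other libraries were mixed, with a log2 fold change of 0.09 ± 0.07 (adjusted p = 0.466).

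Selenot, an anchored thioredoxin-like protein of the same membrane, was the only one of the 10 with a negative fold change. It had 231, 220 and 232 CPM in MeHg against 241, 229 and 234 CPM in Control, with overlapping groups. Its log2 fold change was -0.04 ± 0.06 (SE, adjusted p = 0.683, edgeR), and the interval of -0.17 to 0.09 corresponds to 0.887 to 1.06 times the Control level. It was the narrowest interval of the 10, and that of Gpx1 was the widest.

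Per gene length, the levels spanned a wide range. On the authors' FPKM scale Selenow was highest, at 389 ± 35.1 FPKM in MeHg and 356 ± 16.0 FPKM in Control (SD, n = 3 each). Selenom followed with 125 ± 15.1 and 115 ± 6.65 FPKM, and Gpx4 with 122 ± 9.03 and 101 ± 1.29 FPKM, each MeHg before Control. These 2 overlapped in MeHg and were apart in Control. Selenop and Selenot, at 65.4 and 61.8 FPKM in MeHg and 62.0 and 64.1 FPKM in Control, overlapped in both groups, and their means changed places. Below them came Selenok (47.7 FPKM in MeHg, 44.9 in Control), Selenof (26.3 and 23.9), Txnrd1 (9.75 and 9.19), Gpx1 (4.95 and 4.09) and Txnrd2 (2.85 and 2.75), each apart from its neighbours in both groups. The 10 genes together summed to 864, 786 and 914 FPKM in MeHg and 807, 769 and 773 FPKM in Control, and Selenow made up 44.2 to 46.2% of that sum in every library. MeHg replicate 2 lay within the controls in this sum.

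**Figure D2:**
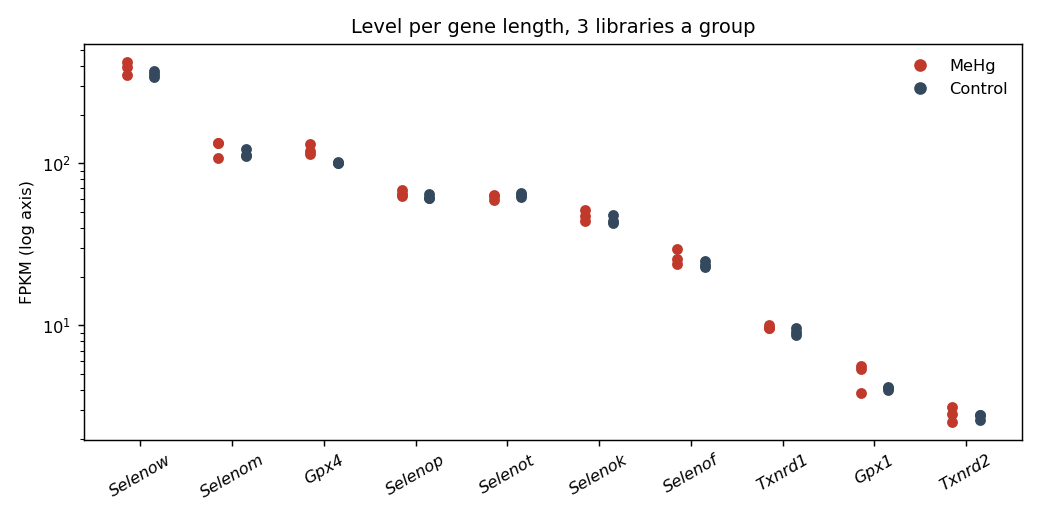
Level of each selenoprotein RNA in the authors' FPKM (log axis), ordered by the mean over 6 libraries, with 3 MeHg libraries (left) and 3 Control libraries (right) per gene. Selenow stands highest, Selenom and Gpx4 overlap in MeHg, and Selenop and Selenot overlap in both groups.

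The other 14 selenoprotein genes of the mouse included the 1 gene of the pathway lists that was called. Of these 14, 10 had enough counts to be tested, 1 rose and 0 fell, and their median log2 fold change was 0.01. Gpx3, the secreted plasma peroxidase, had 11.2, 20.2 and 14.0 CPM in MeHg against 4.72, 7.03 and 3.38 CPM in Control. Every MeHg library was above every control, with the highest level in MeHg replicate 2. Its log2 level rose by 1.57 ± 0.29 (SE, edgeR adjusted p = 0.0431). It was called under 12 of 20 other settings (adjusted p 1.37e-11 to 0.207) and had a log2 fold change of 1.28 to 1.88 over all 20. It stood at 1.31 and was called without MeHg replicate 2 (adjusted p = 0.0229) and at 1.88 and called without Control replicate 2 (0.0426), and it was not called when any other single library was left out, where 0 to 2 of all tested genes were called.

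Markers of other tissue also differed between the groups. The 8 ependymal markers summed to 41.2 to 66.3 CPM in MeHg and 17.5 to 25.6 CPM in Control, and 7 of them were higher in every MeHg library. The 12 choroid plexus markers summed to 1672 to 7132 CPM in MeHg and 28.8 to 2031 CPM in Control, and 1 of them was higher in every MeHg library. Their sum overlapped between the groups and was lowest within MeHg in replicate 2. None of these 20 markers was at 0 in all libraries, and Ttr, the defining choroid plexus gene, was lowest in Control replicate 3 at 4.60 CPM. The brainstem markers summed to 195 CPM in MeHg replicate 2. The part of these tissues in the level of Gpx3 was not tested.

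**Figure D3:**
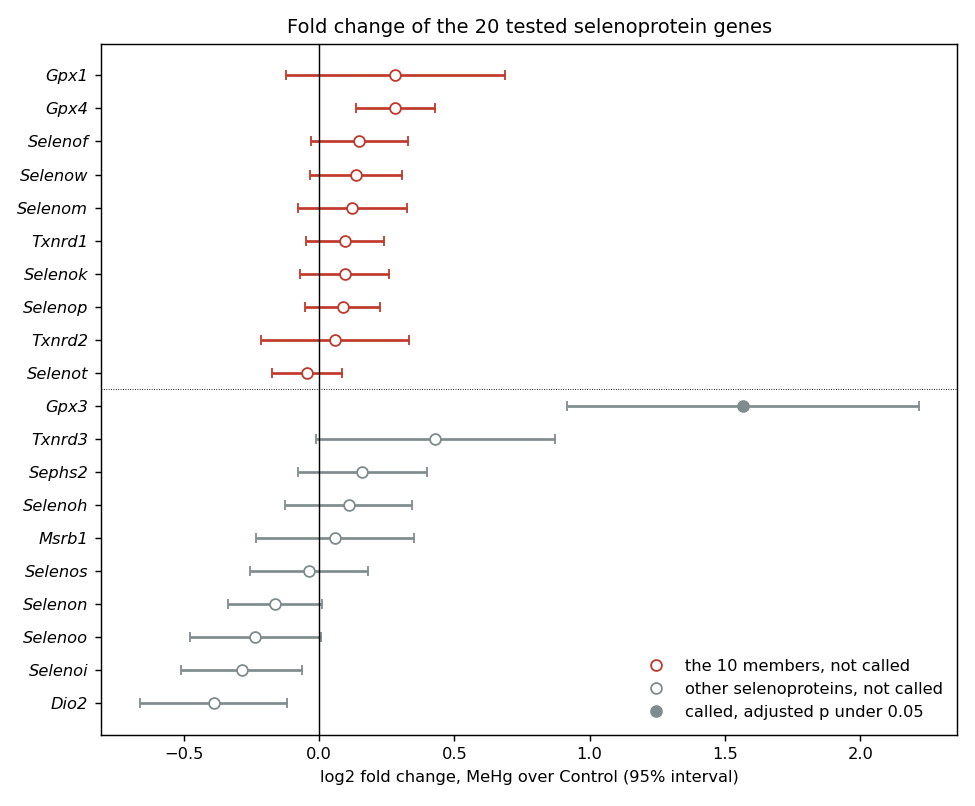
Log2 fold change (MeHg over Control) of the 20 tested selenoprotein genes with 95% intervals, the 10 described here above the dotted line and the other 10 below it. Filled points passed an adjusted p of 0.05 (edgeR), which only Gpx3 did among these 20, at 1.57.

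Other selenoproteins with the smallest p did not pass in the main test. Dio2, the deiodinase that activates thyroid hormone in brain, had 37.0, 40.1 and 28.9 CPM in MeHg against 45.7, 49.5 and 43.7 CPM in Control, a log2 difference of -0.39 ± 0.12 (SE, edgeR adjusted p = 0.102, and 0.0400 with DESeq2, in a range of 0.00608 to 0.257 over 20 other settings). All MeHg libraries were below all controls for Dio2, Selenon and Selenoo, 3 of the 10 tested (15.5% of all tested genes). They were above all controls for 2 of the 10, Gpx3 and Txnrd3 (13.9% of all tested genes). Selenoi, an enzyme of phospholipid synthesis, had a log2 fold change of -0.29 ± 0.10 (adjusted p = 0.128, called under 3 of 20 other settings), and Txnrd3, the third thioredoxin reductase, one of 0.43 ± 0.20 (0.215). Dio1, Dio3, Gpx2 and Selenov had too few counts to be tested.

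None of the 11 genes for making and inserting selenocysteine and for selenium supply was called in the main edgeR test (2.36% of all genes), and 2 had an unadjusted p under 0.05 (24.5% of all genes). DESeq2 (8.97% of all genes called) and limma-voom (2.12%) also called 0 of these 11. Other edgeR settings called Lrp2 without a filter on low counts (adjusted p = 0.0444) and with sex by expression (0.0457), and Secisbp2l without MeHg replicate 2 (0.0489). The median log2 fold change of the 11 was -0.08, against 0.01 for all tested genes, with 4 of 11 above 0, against 51.1% of all. Sepsecs, the enzyme that completes selenocysteine on its tRNA, was at -0.23 ± 0.10 on the log2 scale (SE, adjusted p = 0.198, edgeR), and its 3 MeHg libraries were all below the controls. Scly, which recovers selenium from selenocysteine, was at 0.19 ± 0.10 (0.265), with all MeHg libraries above the controls. Of the 11 genes, 1 had all MeHg libraries below the controls (15.5% of all tested genes) and 2 had them above (13.9%). Trit1, which modifies the selenocysteine tRNA, was at -0.18 ± 0.13 (0.422). The SECIS-binding protein Secisbp2 (-0.14 ± 0.10, adjusted p = 0.441) and the elongation factor Eefsec (-0.09 ± 0.14, 0.738) had overlapping groups. Lrp2, a Selenop receptor of kidney and choroid plexus, averaged 1.55 CPM in MeHg and 0.635 CPM in Control, a log2 difference of 1.27 ± 0.40 (adjusted p = 0.106, in a range of 0.0444 to 0.489 over 19 other settings).

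None of 14 partners and cysteine-containing relatives was called in the main edgeR test either (2.36% of all genes), and 3 had an unadjusted p under 0.05 (24.5% of all genes). DESeq2 called Uggt1, Derl2 and Gpx8 of them (8.97% of all genes), and limma-voom 0 (2.12%). Over 20 other settings, DESeq2 included, Derl2 was called in 5, Uggt1 in 4, Gpx8 in 2 and Txnip, an inhibitor of thioredoxin, in 2. Txnip was called without a filter on low counts (adjusted p = 0.0447) and without both libraries numbered 2 (0.0145), and in the main test it was at -0.43 ± 0.32 (SE, adjusted p = 0.444). Uggt1, the folding sensor that Selenof binds, had 71.6, 70.7 and 72.5 CPM in MeHg against 86.6, 81.7 and 92.1 CPM in Control. Its groups did not overlap, and its log2 fold change was -0.28 ± 0.07 (SE, adjusted p = 0.0579, edgeR, and 0.0339 with DESeq2, in a range of 0.0213 to 0.242 over 20 other settings). Derl2, a channel component for misfolded proteins, was at -0.38 ± 0.10 (adjusted p = 0.0748). Uggt1 (12853 bases) and Derl2 (8049 bases) are long genes, and above 6000 bases the median log2 fold change of all tested genes was -0.08. Gpx8, a peroxidase of the endoplasmic reticulum without selenocysteine, was at 1.21 ± 0.36 (0.0962), and Txn1, the cytosolic substrate of Txnrd1, at 0.20 ± 0.09 (0.213). Of the 14 genes, 3 had all MeHg libraries below the controls (15.5% of all tested genes) and 4 had them above (13.9%).

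**Figure D4:**
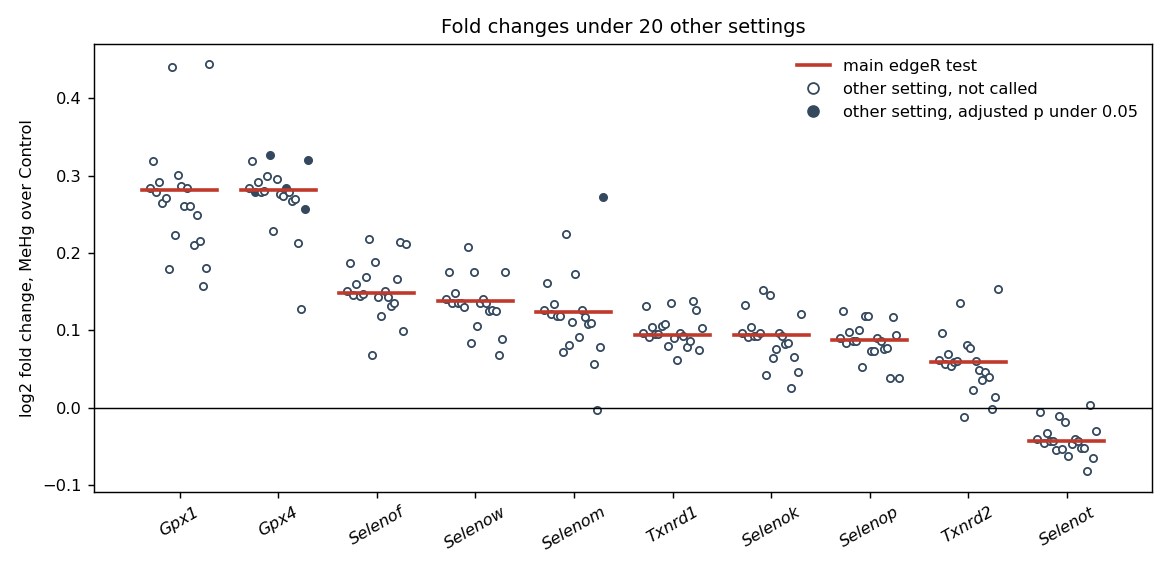
Log2 fold change (MeHg over Control) of the 10 selenoproteins in the main edgeR test (red lines) and under 20 other settings (points, filled where the adjusted p was under 0.05). Gpx4 was called in 5 settings and Selenom in 1, and Selenot was the only gene mostly below 0.

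Gene length moved with the fold change over the whole table, and the median length of the 10 genes was 2366.5 bases, against 4105 for all tested genes. Txnrd2, Selenof and Txnrd1 were longer than the median of all tested genes. Over all tested genes the median log2 fold change was 0.12 at 1001 to 1500 bases, 0.10 at 1501 to 2000 bases and -0.08 above 6000 bases. Gpx4, at 1724 bases, had 0.28 where the upper quartile of its length class was 0.29. Selenow, Selenom, Selenok, Selenop, Selenot, Selenof and Txnrd2 also lay within the middle range (lower to upper quartile) of their classes, as did Gpx1. Txnrd1, the longest of the 10 at 7086 bases, lay at 0.09, just above the upper quartile of 0.08 for its class. Of the other genes that were lower in MeHg, Dio2 (6415 bases), Selenoi (13135), Sepsecs (6982), Uggt1 (12853) and Derl2 (8049) also exceeded 6000 bases. In that class 35.5% of all tested genes had a fold change above 0, and the lower quartile was -0.22. Log2 fold changes of these genes, -0.39 to -0.23, lay below that quartile. Trit1 (2087 bases) and Txnip (3123) were lower too but shorter, and Lrp2 (16701) was higher. What gives rise to the relation with length was not tested.

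**Figure D5:**
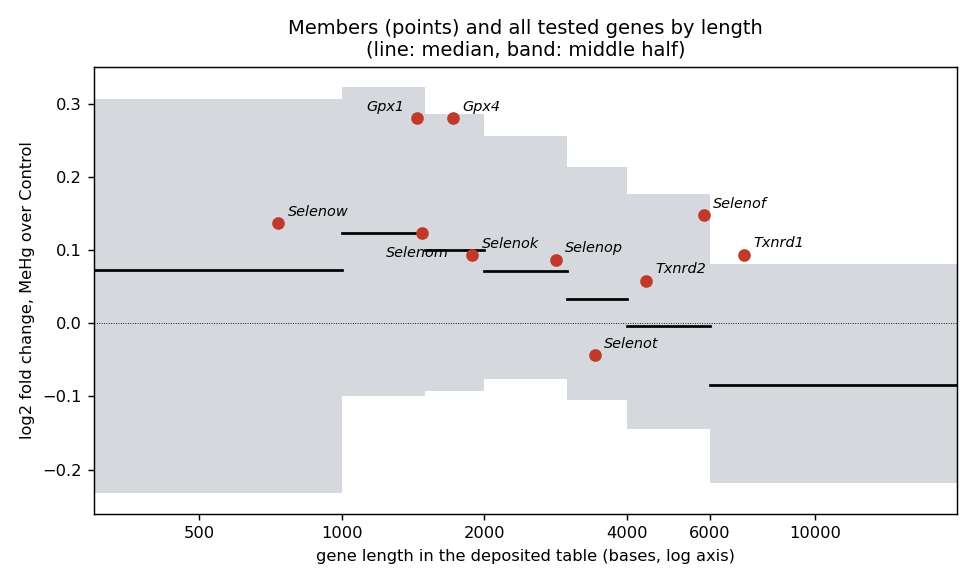
Log2 fold change (MeHg over Control) against gene length (log axis, drawn from 300 to 20000 bases), with points for the 10 selenoproteins and, for all tested genes by length class, a line at the median and a band from the lower to the upper quartile. The medians fall from 0.12 at 1001 to 1500 bases to -0.08 above 6000 bases, and 9 of the 10 points lie within the band of their class.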

How the data were processed

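RNA of 6 cerebella was sequenced on an Illumina NovaSeq with paired reads of 150 bases and the mm39 reference, per the labels. The submitters' processing notes also name DESeq2. Which aligner, counter, annotation and strand setting were used is not given in the sources used here. Reads where genes overlap on opposite strands can therefore not be assigned with certainty. Raw counts per gene were deposited by the authors and, in a separate table, FPKM made from those counts, the listed gene length and a library total 3.96 to 9.03% above the column total. All columns were matched to labelled samples.

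Counts were filtered with edgeR's filterByExpr (16859 genes; all 10 members passed), scaled by TMM and compared over 6 libraries with edgeR 4.0.16 (R 4.3.3; glmQLFit and glmQLFTest), group as the only term, Benjamini-Hochberg adjusted over all genes. The SE is the fold change divided by the square root of F, and intervals use the test's degrees of freedom. DESeq2 1.42.0 and limma 3.58.1 served as alternatives; FPKM were tested as log2(FPKM + 1) and log2(FPKM + 0.1). Offsets for length and GC content (longest GENCODE transcript) were loess fits per library with a span of 0.4. The procedure was tested on simulated counts. Libraries of a group were not copies (chi-square per degree of freedom 7.77 to 19.69).

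All 10 members are named, with every called gene and the 4 genes of smallest p of each of 3 pathway lists; Lrp8, Secisbp2, Eefsec, Selenon and Selenoo were added after their values were seen. Members and lists were chosen with earlier results of these data known. Counts limit precision: an expected counting error of 8.45 to 10.8% for Gpx1 and at most 1.98% for Gpx4.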

Additional observations from a re-analysis of the deposited data

How the results depend on the processing

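Over the 20 other settings the fold changes of Gpx1, Gpx4, Selenof, Selenok, Selenop, Selenow and Txnrd1 stayed above 0. Near-zero values crossed it for Selenom (-0.0037), Selenot (0.0036) and Txnrd2 (-0.0022) with offsets for length and GC content, and for Txnrd2 without MeHg replicate 3 (-0.0117). Gpx4 was called with DESeq2 (0.2836), without a low-count filter (0.2786), with sex by expression (0.2572), with MeHg replicate 2 left out (0.3263), and without both libraries numbered 2 (0.3204), where Selenom was also called (0.2725). The sex by expression setting and the one without both libraries numbered 2 were added after the data were seen. Leaving out 1 library, Gpx4 ranged from 0.23 to 0.33, Txnrd2 from -0.01 to 0.14, Gpx1 from 0.18 to 0.44, Selenof from 0.07 to 0.22, Selenok from 0.04 to 0.15, Selenom from 0.07 to 0.22, Selenow from 0.08 to 0.21, Selenop from 0.05 to 0.12, Txnrd1 from 0.06 to 0.14 and Selenot from -0.06 to -0.01. The lowest values came without MeHg replicate 3 for Selenof, Selenok and Selenow, without MeHg replicate 2 for Selenop, and without MeHg replicate 1 for Gpx1 and Selenom.

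Of the 10 members, 1 was called with DESeq2, without a filter, with sex by expression or at an adjusted p under 0.1, 2 without both libraries numbered 2, and 0 to 1 leaving out 1 library. All genes called were 398 in the main test, 1653 at the looser threshold, 197 with upper-quartile scaling, 2378 without a filter, 609 with labelled sex, 1752 with sex by expression, 1394 with DESeq2, 1723 without both libraries numbered 2, 0 to 1091 leaving out 1 library, and 0 with limma on FPKM or with either offset (3577 to 3887 at an unadjusted p under 0.05). Of the 39 pathway genes, called were 1 in the main test, 4 at the looser threshold, 8 without a filter, 5 with DESeq2 or sex by expression, 6 without both libraries numbered 2, 0 to 4 leaving out 1 library, and 0 with limma on FPKM or either offset. The cause of these changes was not tested.

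No label says that the replicate numbers pair the libraries. Same-numbered deviations from the group means correlated at 0.187, 0.346 and -0.236, too few values to settle it. With the replicate block 648 genes, 0 members and 1 pathway gene were called. MeHg replicate 1 and 2 correlated best with their own number and MeHg replicate 3 did not. Depth limits Gpx1 most, with 85 to 140 counts a library.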
